A study of Mus musculus with 18 samples.

Results

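Chromatin accessibility was examined at 9 CC chemokine genes that lie in clusters on mouse chromosome 11, with Ccl2, Ccl7, Ccl12 and Ccl8 in a first cluster, which also holds Ccl11 and Ccl1, and Ccl5, Ccl9, Ccl6, Ccl3 and Ccl4 in another further along the chromosome. An accessible region (peak) was taken as a member when it overlapped the annotated body of any of these 9 genes extended by 10 kb on each side. This gave 67 of the 194284 peaks that were counted in every library, with 20 around Ccl2, Ccl7, Ccl12 and Ccl8 and 47 around the remaining genes. By gene, there were 9 peaks for Ccl2, 7 for Ccl7, 6 for Ccl12, 5 for Ccl8, 10 for Ccl5, 10 for Ccl9, 12 for Ccl6, 11 for Ccl3 and 12 for Ccl4, and a peak within reach of neighbouring genes counted for each of them. The authors classed 13 of the members as promoter and 54 as distal. Each peak is named here by the gene start nearest to its centre and the distance between them, so that Ccl5 +5.2 kb lies 5.2 kb downstream of the start of Ccl5 in the direction of transcription. Wide peaks can cover a start that lies away from their centre, as Ccl2 +2.4 kb does.

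Bone marrow-derived macrophages (BMDMs) were grown for 6 days in L929-conditioned medium from the marrow of 3 male, 12-week-old Il10-/- mice on the C57BL/6J background. All 6 groups, the controls included, therefore lacked the Il10 gene, and any IL-10 signal came from cytokine that was added. Cells were left untreated or were given 500 nM (+)-JQ1 or 10 ng/mL IL-10 for 12 h, after which 50 ng/mL LPS or PBS was added for 4 h, making 16 h in all. The paper's methods also list a vehicle control before LPS, and untreated, unstimulated cells as a further control. The labels call the groups without an agent untreated and do not say whether they received vehicle. The groups were unstimulated, (+)-JQ1, IL-10, LPS, LPS + (+)-JQ1 and LPS + IL-10, with 3 libraries each, and values below are given in the order of replicates 1, 2 and 3 of the labels, which do not say from which mouse each library came, so that p-values measure the spread between these libraries. Accessibility was measured by ATAC-seq, in which a transposase inserts adapters into open DNA, and is given as CPM, the count of a peak scaled to a common total of counts in peaks, with TMM factors. The total count in peaks lay between 12020526 and 25908198 per library.

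Of 6 macrophage marker genes, 5 had a promoter peak (Cd68, Emr1, Itgam, Lyz2 and Mertk), and their strongest peaks had median levels of 4.44 to 36.4 CPM per kb of peak. No promoter peak was found at any of 3 T cell markers. Those of the B cell, fibroblast and epithelial markers had median levels of 1.01 to 5.78 CPM per kb, and among 3 neutrophil markers Elane stood at 4.21 and S100a8 at 17.8. The middle range of all promoter peaks (the lower to the upper quartile) was 1.55 to 9.28 CPM per kb. In a bulk sample, fewer open cells and less accessibility per cell cannot be told apart.

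CC chemokines are small secreted proteins that bind receptors on leukocytes and draw them toward a site of infection or injury. Macrophages are a main source, and sensing of bacterial LPS through TLR4 activates NF-kappaB, AP-1 and, by way of type I interferon, STAT and IRF factors that act at these genes. IL-10 is an anti-inflammatory cytokine that acts on macrophages through STAT3. (+)-JQ1 occupies the bromodomains of BET proteins and displaces them from acetylated chromatin.

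Sequences from build mm9 are shown for some of the places named below, with matches to the AP-1, NF-kappaB and interferon-response motifs in capitals. Matches to the C/EBP and PU.1 motifs are not marked. The 200 bases upstream of the gene start are given for Ccl5 and Ccl9, because these were the promoters among the 9 that held a match to the NF-kappaB consensus. An AP-1 match (TGANTCA) was held by 2 of the 9, Ccl9 and Ccl7, and the stretch of Ccl7 is not printed. Upstream of the 1653 protein-coding starts on chromosome 11, 4.4% held the NF-kappaB consensus and 4.6% an AP-1 match. The central 300 bases are given for Ccl4 +3.0 kb and Ccl9 +9.7 kb, intergenic peaks with a high level in LPS-treated cells, and short stretches are given around the AP-1 matches of Ccl12 +3.0 kb and Ccl6 -4.9 kb, the NF-kappaB match of Ccl5 -4.7 kb and the interferon-response match (ISRE) of Ccl5 -6.1 kb.
Ccl5 upstream, chr11:83344021-83344220, minus strand: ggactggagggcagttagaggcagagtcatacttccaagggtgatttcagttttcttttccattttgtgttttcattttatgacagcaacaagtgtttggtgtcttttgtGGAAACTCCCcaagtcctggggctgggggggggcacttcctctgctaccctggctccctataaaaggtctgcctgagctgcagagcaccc
Ccl9 upstream, chr11:83392139-83392338, minus strand: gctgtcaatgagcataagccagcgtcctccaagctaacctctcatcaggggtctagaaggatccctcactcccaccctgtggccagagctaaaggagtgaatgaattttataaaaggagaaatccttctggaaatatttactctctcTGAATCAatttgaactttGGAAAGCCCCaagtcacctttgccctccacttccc
Ccl4 +3.0 kb centre, chr11:83478922-83479221, plus strand: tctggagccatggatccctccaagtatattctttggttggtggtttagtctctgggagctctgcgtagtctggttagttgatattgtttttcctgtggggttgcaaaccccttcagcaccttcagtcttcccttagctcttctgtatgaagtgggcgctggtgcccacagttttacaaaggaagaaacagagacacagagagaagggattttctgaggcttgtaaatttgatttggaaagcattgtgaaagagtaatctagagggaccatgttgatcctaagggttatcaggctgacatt
Ccl9 +9.7 kb centre, chr11:83382243-83382542, plus strand: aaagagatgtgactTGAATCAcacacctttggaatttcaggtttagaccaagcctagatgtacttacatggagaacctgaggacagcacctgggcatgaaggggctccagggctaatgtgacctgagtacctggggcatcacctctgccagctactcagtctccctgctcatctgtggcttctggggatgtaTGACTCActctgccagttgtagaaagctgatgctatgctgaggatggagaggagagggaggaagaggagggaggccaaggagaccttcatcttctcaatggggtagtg
Ccl12 +3.0 kb, AP-1, chr11:81918320-81918350, plus strand: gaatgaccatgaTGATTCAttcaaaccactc
Ccl12 +3.0 kb, AP-1, chr11:81918346-81918376, plus strand: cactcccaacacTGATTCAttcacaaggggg
Ccl6 -4.9 kb, AP-1, chr11:83411476-83411506, plus strand: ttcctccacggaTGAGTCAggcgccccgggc
Ccl5 -4.7 kb, NF-kappaB, chr11:83348809-83348842, plus strand: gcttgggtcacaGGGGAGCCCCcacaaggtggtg
Ccl5 -6.1 kb, ISRE, chr11:83350164-83350197, plus strand: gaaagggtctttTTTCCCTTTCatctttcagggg

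Within the central 300 bases, searched on both strands, 13 of the 67 members (19.4%) held an AP-1 match, against 12.1% of all peaks. The NF-kappaB consensus was found in 5 members (7.5%, against 3.6%), a C/EBP match (TTGCNNAA) in 11 (16.4%, against 12.5%), a PU.1 match (GAGGAA) in 23 (34.3%, against 31.7%) and an ISRE in 3 (4.5%, against 4.4%). These are matches of letters only, and they were not tested against the response. The median member was 1045 bp wide with 44.0% GC, while the median over all peaks was 956 bp and 46.2% GC.

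LPS raised accessibility at 31 of the 47 peaks around Ccl5, Ccl9, Ccl6, Ccl3 and Ccl4 and at 10 of the 20 around Ccl2, Ccl7, Ccl12 and Ccl8 (LPS against unstimulated cells). With edgeR's quasi-likelihood test and Benjamini-Hochberg adjustment over 194230 peaks, calling a peak at an adjusted p under 0.05 and an absolute log2 fold change over 0.5, 41 of the 67 members (61.2%) were higher with LPS and 1 (1.49%) was lower. Over all tested peaks 11.7% were called higher and 10.2% lower. The median log2 fold change was 0.85 for the members and -0.03 for all peaks. None of the 41 raised members overlapped between the groups. All 41 were higher with LPS in the replicate 1 pair (lane 5) and in the replicate 3 pair (lane 6). Here and below, the same libraries made the calls, so such counts describe the called peaks and are not separate support. No share without overlap was taken over all peaks. Of the 42 calls, 28 were made in each of 12 alternative settings (other scalings, filters and fits, and each replicate left out). All 10 peaks of the Ccl5 window rose (median log2 fold change 2.70), as did 9 of 12 for Ccl4, 7 of 11 for Ccl3, 6 of 10 for Ccl9, 5 of 9 for Ccl2, 4 of 7 for Ccl7, 4 of 6 for Ccl12 and 3 of 5 for Ccl8. Around Ccl6, 3 of 12 rose and 1 fell. In the Ccl5 window, the call at Ccl5 -7.9 kb was made in 4 of the 12 settings, being lost with DESeq2, total counts, loess offsets, a filter of at least 10 counts in every library, a fit of the compared groups alone and each replicate left out, where its log2 fold change went as low as 0.34.

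**Figure D1:**
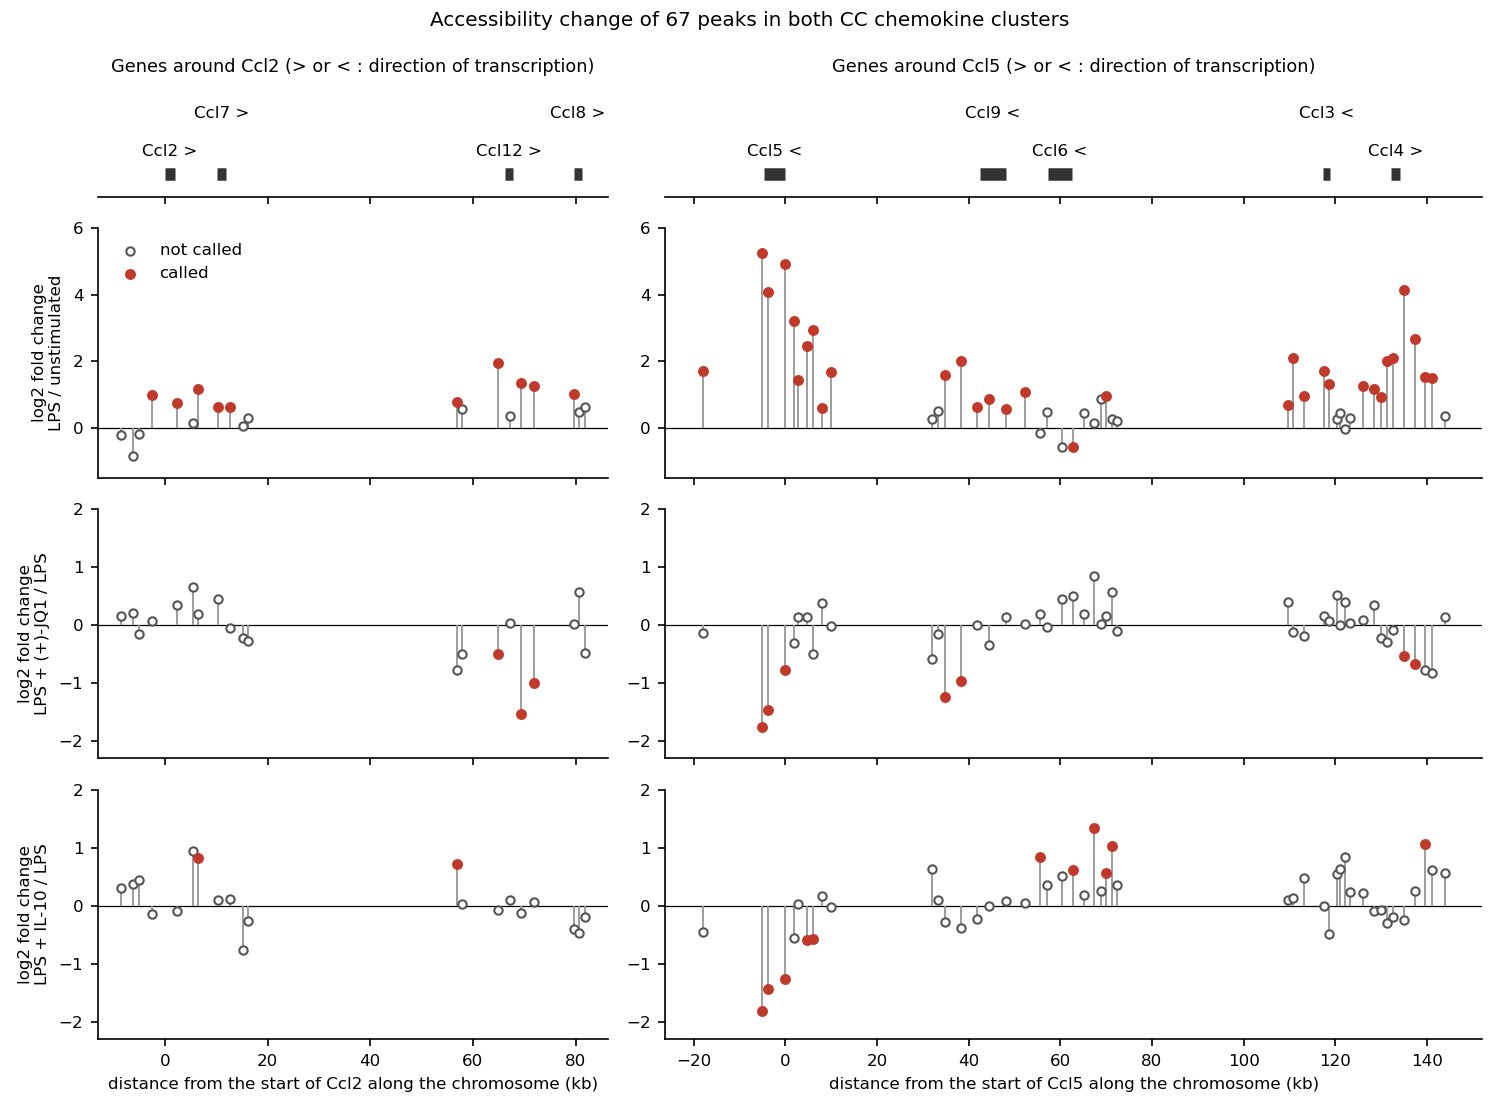
Log2 fold change of each member peak against distance (kb) from the start of Ccl2 (left) or Ccl5 (right), in 3 comparisons: LPS with unstimulated cells (top), then LPS + (+)-JQ1 with LPS alone and LPS + IL-10 with LPS alone. Dark bars above are gene bodies, filled circles are called peaks and open circles are not called. The tallest responses to LPS stand at Ccl5 and just downstream of Ccl4, and the falls with (+)-JQ1 lie at Ccl5, between Ccl5 and Ccl9, downstream of Ccl4 and around Ccl12.

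Ccl2, Ccl7 and Ccl12 encode ligands of CCR2, the receptor that brings monocytes out of the blood and marrow. The peak over the start of Ccl2 (Ccl2 +2.4 kb, chr11:81848592-81854347) held 24.6, 24.8 and 28.2 CPM in unstimulated cells and 45.2, 42.8 and 42.3 CPM with LPS. The groups did not overlap, and the log2 fold change was 0.75 ± 0.13 (SE, n = 3, edgeR adjusted p = 3.4e-06), although with loess offsets it was 0.33 and no longer passed the size threshold. The start of Ccl7 (Ccl7 +0.1 kb, chr11:81857904-81860818) went from 6.96, 6.65 and 7.23 CPM to 11.3, 10.3 and 10.6 CPM, a log2 fold change of 0.63 ± 0.15 (SE, edgeR adjusted p = 0.00099), and this too fell under the size threshold with loess offsets (0.44) and with total counts (0.40). Both starts were accessible in unstimulated cells too. The start of Ccl12 (Ccl12 -1.4 kb, chr11:81912215-81915598) rose from 10.4, 8.63 and 11.3 CPM to 38.6, 36.3 and 42.3 CPM, with a log2 fold change of 1.95 ± 0.14 (SE, edgeR adjusted p = 3.8e-22). Ccl8, which in mice encodes a ligand of CCR8, had the weakest start peak (Ccl8 +0.0 kb, chr11:81928383-81929023), with 0.870, 0.604 and 0.384 CPM in unstimulated cells and 1.06, 1.2 and 1.49 CPM with LPS. Its log2 fold change of 1.02 ± 0.40 (SE) passed the edgeR test only narrowly (adjusted p = 0.049), and the call was made in 4 of the 12 settings, being lost with DESeq2, total counts, the filter of at least 10 counts, the replicate number or the lane as a term, a fit of the compared groups alone and without replicate 2 or replicate 3.

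Ccl3, Ccl4 and Ccl5 encode chemokines that draw T cells, NK cells and monocytes. The peak over the start of Ccl5 (Ccl5 +0.1 kb, chr11:83343409-83344339), which holds the upstream stretch printed above, was almost closed in unstimulated cells, at 1.87, 1.21 and 0.877 CPM. With LPS it reached 42.5, 35.0 and 39.2 CPM, a log2 fold change of 4.91 ± 0.20 (SE, n = 3, edgeR adjusted p = 6.1e-40). The start of Ccl4 (Ccl4 -0.7 kb, chr11:83474701-83476098) rose from 7.23, 6.81 and 5.86 CPM to 27.9, 26.8 and 24.2 CPM (log2 fold change 1.99 ± 0.15, SE, edgeR adjusted p = 2.5e-22). That of Ccl3 (Ccl3 +0.2 kb, chr11:83462255-83463022) rose from 9.37, 11.6 and 15.5 CPM to 28.6, 28.7 and 32.8 CPM (log2 fold change 1.30 ± 0.15, SE, edgeR adjusted p = 1.7e-12). No library of unstimulated cells reached the lowest LPS library at any of these starts.

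Ccl9 and Ccl6 encode ligands of CCR1 that are made by resting myeloid cells. The start of Ccl9 (Ccl9 +0.0 kb, chr11:83390546-83393709) was open before LPS, at 17.9, 21.8 and 25.0 CPM, and rose to 31.1, 34.1 and 30.9 CPM. Its log2 fold change of 0.57 ± 0.13 (SE, n = 3, edgeR adjusted p = 0.0006) fell under the size threshold with total counts (0.35) and loess offsets (0.21), and the call was also lost with the filter of at least 10 counts and without replicate 1 or replicate 2. The start of Ccl6 (Ccl6 -0.2 kb, chr11:83405567-83407991), which also lies in an intron of the noncoding gene E230016K23Rik, was the member that fell, from 6.63, 8.96 and 11.5 CPM to 6.06, 6.59 and 5.55 CPM. The highest LPS library was only just below the lowest unstimulated one, with a log2 fold change of -0.58 ± 0.16 (SE, edgeR adjusted p = 0.0054). Without replicate 3, whose unstimulated library was the highest, it was -0.31 with an adjusted p of 0.28.

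**Figure D2:**
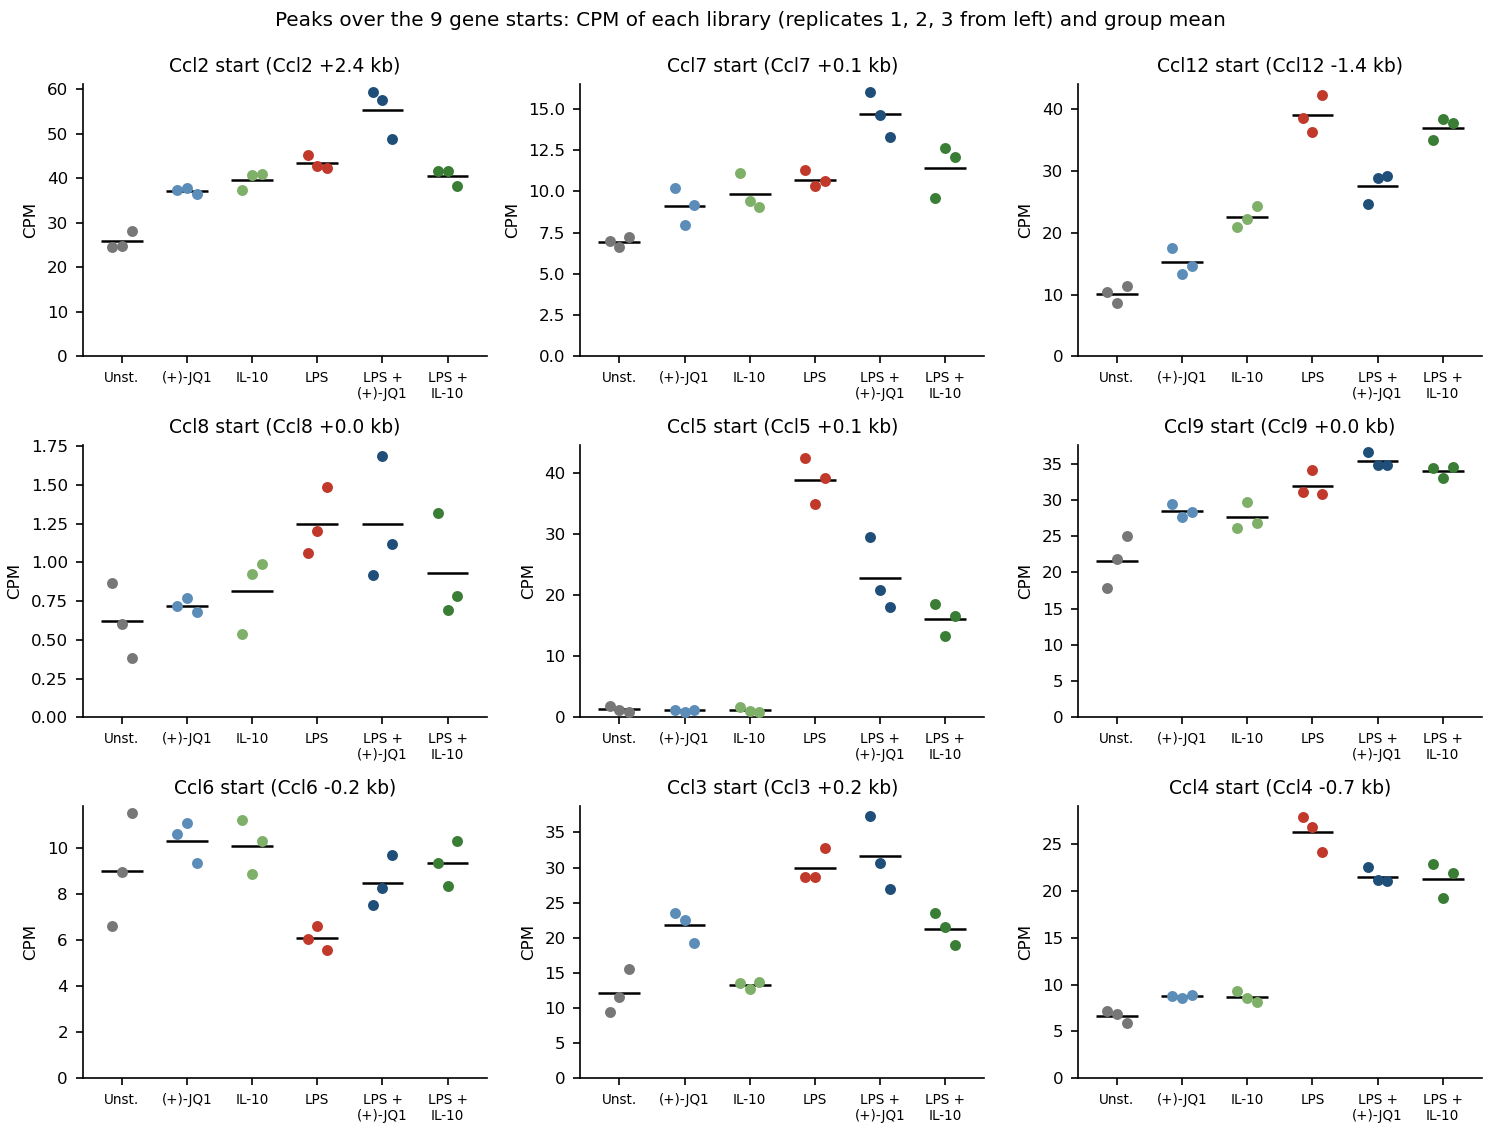
CPM of each library (points, replicates 1 to 3 from left) and group mean (line) for the peak over each of the 9 gene starts, in the 6 groups on a linear axis from 0. Ccl5 goes from near 0 to between 35.0 and 42.5 CPM with LPS and is lower with (+)-JQ1 or IL-10, while Ccl2 and Ccl9 have the highest levels in unstimulated cells, and Ccl6 has its lowest mean with LPS alone.

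Per kb of peak, the order of the 9 starts changed with LPS. In unstimulated cells the mean level was highest at Ccl3 (15.8 ± 4.01 CPM per kb, SD, n = 3), followed by Ccl9 (6.81), Ccl4 (4.75), Ccl2 (4.50), Ccl6 (3.72), Ccl12 (2.98), Ccl7 (2.38), Ccl5 (1.42) and Ccl8 (0.966). Neighbours overlapped between Ccl4 and Ccl2, Ccl2 and Ccl6, Ccl6 and Ccl12, and Ccl5 and Ccl8. With LPS, Ccl5 (41.8 ± 4.06, SD) and Ccl3 (39.1 ± 3.12) stood highest and overlapped, followed by Ccl4 (18.8), Ccl12 (11.5), Ccl9 (10.1), Ccl2 (7.54), Ccl7 (3.68), Ccl6 (2.50) and Ccl8 (1.95), where Ccl12 and Ccl9, and Ccl6 and Ccl8, overlapped. With LPS + (+)-JQ1 and with LPS + IL-10 the highest level was at Ccl3 (41.2 and 27.8 CPM per kb) and the next at Ccl5 (24.6 and 17.4), which with LPS + IL-10 overlapped Ccl4 (15.3).

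Away from the starts, the largest rises with LPS were again at Ccl5 and Ccl4. Ccl5 +5.2 kb (chr11:83338123-83339546), over the 3' end of Ccl5, held 1.54, 1.04 and 0.548 CPM in unstimulated cells and 47.4, 33.0 and 36.1 CPM with LPS (log2 fold change 5.25 ± 0.24, SE, edgeR adjusted p = 7e-37). Ccl5 +3.9 kb (chr11:83339694-83340611), in an intron of Ccl5, went from 1.27, 0.604 and 0.932 CPM to 17.4, 15.1 and 14.2 CPM (log2 fold change 4.08 ± 0.26, SE, edgeR adjusted p = 1.5e-25). These peaks and the start peak follow each other along the body of Ccl5, and none of them overlapped between the groups. The intergenic Ccl4 +3.0 kb (chr11:83478265-83479880), just beyond the end of Ccl4, rose from 3.28, 2.80 and 2.63 CPM to 49.5, 47.0 and 58.1 CPM (log2 fold change 4.15 ± 0.17, SE, edgeR adjusted p = 5.3e-39). None of Ccl5 +5.2 kb, Ccl5 +3.9 kb and Ccl4 +3.0 kb held a match to the AP-1, ISRE or NF-kappaB motif in its centre. Upstream of Ccl5, the intergenic Ccl5 -1.9 kb rose from 1.27, 1.10 and 0.712 CPM to 9.97, 11.4 and 6.69 CPM (log2 fold change 3.20 ± 0.27, SE), and Ccl5 -6.1 kb from 0.937, 1.81 and 1.37 CPM to 11.6, 8.24 and 12.4 CPM (2.94 ± 0.23, SE). The edgeR adjusted p was 1.1e-18 for Ccl5 -1.9 kb and 1.6e-20 for Ccl5 -6.1 kb. Ccl5 +18.1 kb, a wide peak over the neighbouring gene Gm11435 that had the highest mean in the Ccl5 window, rose from 15.2, 10.4 and 8.06 CPM to 36.3, 33.2 and 40.0 CPM (1.71 ± 0.16, SE, edgeR adjusted p = 1e-16).

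(+)-JQ1 lowered a limited number of these peaks (LPS + (+)-JQ1 against LPS). Of the 67 members, 10 (14.9%) were called lower, where 3.49% of all tested peaks were, and 0 were called higher, where 1.74% were. DESeq2 called 9 (13.4%) lower and 0 higher, where 2.84% and 1.57% of all peaks were. At an unadjusted p under 0.05 in edgeR 15 were lower and 7 higher, with no share of all peaks taken at that cut. The median log2 fold change was 0.00 for the members. An AP-1 match lay in the centre of 2 of the 10, beside 13 of all 67 members (19.4%). The 10 were Ccl12 -1.4, +3.0 and +5.7 kb, Ccl5 +5.2, +3.9 and +0.1 kb, Ccl9 +13.2 and +9.7 kb and Ccl4 +3.0 and +5.3 kb. In 9 of them the groups did not overlap, and replicate 1 was the highest LPS + (+)-JQ1 library in 7. Without replicate 3, 5 peaks (7.46%) were called lower, where 1.86% of all peaks were, and without replicate 2, 7 (10.4%, where 1.55% were). Of the 10 calls, 4 were made in each of the 12 settings. This comparison shares its LPS libraries with LPS against unstimulated cells, so the values of both are given side by side.

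Along Ccl5, (+)-JQ1 brought Ccl5 +5.2 kb down to 18.6, 9.39 and 7.6 CPM, against 47.4, 33.0 and 36.1 CPM with LPS alone. The log2 fold change was -1.76 ± 0.17 (SE, n = 3, edgeR adjusted p = 4.7e-14), beside 5.25 for LPS itself, and every library lay between the unstimulated and the LPS libraries. Ccl5 +3.9 kb held 8.67, 4.20 and 4.54 CPM (log2 fold change -1.47 ± 0.20, SE, edgeR adjusted p = 3.7e-08). The start of Ccl5 fell to 29.5, 20.9 and 18.1 CPM (-0.78 ± 0.14, SE, edgeR adjusted p = 3.6e-05). Set against the means of the unstimulated and LPS groups, 28.6% ± 15.6 (SD over the 3 treated libraries) of the LPS rise in CPM was left at Ccl5 +5.2 kb, 33.2% ± 17.0 at Ccl5 +3.9 kb and 57.3% ± 15.8 at the start. Upstream of the gene, Ccl5 -4.7 kb was not called (log2 fold change 0.13 ± 0.14, SE, edgeR adjusted p = 0.71), at 39.8, 33.2 and 27.6 CPM against 34.8, 28.4 and 28.5 CPM with LPS.

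Between Ccl5 and Ccl9, the wide intergenic peak Ccl9 +9.7 kb (chr11:83379579-83385208), which holds 2 AP-1 matches in its centre, had 11.7, 13.6 and 16.3 CPM in unstimulated cells. It had 56.2, 58.2 and 52.6 CPM with LPS (log2 fold change 2.00) and 34.6, 26.2 and 25.1 CPM with LPS + (+)-JQ1. All libraries of the last group were below those of LPS, with a log2 fold change of -0.97 ± 0.13 (SE, n = 3, edgeR adjusted p = 3.6e-08). Its neighbour Ccl9 +13.2 kb (chr11:83378378-83379543) had 4.64, 3.40 and 3.28 CPM with LPS and 2.07, 1.31 and 1.51 CPM with LPS + (+)-JQ1 (-1.24 ± 0.26, SE, edgeR adjusted p = 0.00047), near its unstimulated 1.41, 1.10 and 1.32 CPM. The start of Ccl9 was not called (0.14 ± 0.13, SE, edgeR adjusted p = 0.64).

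Downstream of Ccl4, Ccl4 +3.0 kb had 46.6, 32.9 and 28.2 CPM with LPS + (+)-JQ1, all under the LPS libraries. The log2 fold change was -0.53 ± 0.14 (SE, edgeR adjusted p = 0.0071). Ccl4 +5.3 kb (chr11:83480073-83482630) had 20.9, 34 and 35.8 CPM with LPS and 22.4, 17.8 and 16.5 CPM with LPS + (+)-JQ1 (-0.68 ± 0.15, SE, edgeR adjusted p = 0.00061), and here the groups overlapped, since replicate 1 of LPS (20.9) lay below replicate 1 of LPS + (+)-JQ1 (22.4). Neither Ccl4 peak was called when replicate 2 or replicate 3 was left out. The starts of Ccl4 (-0.29 ± 0.13, SE, edgeR adjusted p = 0.21) and Ccl3 (0.07 ± 0.14, SE, edgeR adjusted p = 0.87) were not called. At the start of Ccl4 all libraries of LPS + (+)-JQ1 (22.5, 21.2 and 21.0 CPM) lay under those of LPS (27.9, 26.8 and 24.2 CPM), while at the start of Ccl3 the groups overlapped.

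In the other cluster the lowered peaks lay around Ccl12. Its start had 24.6, 28.8 and 29.1 CPM with LPS + (+)-JQ1 against 38.6, 36.3 and 42.3 CPM with LPS, without overlap. The log2 fold change of -0.50 ± 0.13 (SE, edgeR adjusted p = 0.0088) lay at the size threshold, and it was not called by DESeq2 or with any of the replicates left out. Ccl12 +3.0 kb (chr11:81917978-81918714), a weak intergenic peak with 2 AP-1 matches, had 1.88, 1.25 and 2.03 CPM with LPS and 0.384, 0.6 and 0.698 CPM with LPS + (+)-JQ1 (-1.54 ± 0.37, SE, edgeR adjusted p = 0.0033), beside 0.937, 0.495 and 0.603 CPM in unstimulated cells. Ccl12 +5.7 kb (chr11:81919982-81922098), which has the highest mean in the Ccl8 window, had 3.08, 2.45 and 4.18 CPM with LPS and 1.23, 2.07 and 1.47 CPM with LPS + (+)-JQ1 (-1.0 ± 0.27, SE, edgeR adjusted p = 0.011). Neither was called without replicate 1 or without replicate 3. The starts of Ccl2 (0.34 ± 0.13, SE, edgeR adjusted p = 0.10) and Ccl7 (0.44 ± 0.14, SE, edgeR adjusted p = 0.049) had higher means with LPS + (+)-JQ1 but did not pass, while in both the 3 libraries lay above all LPS libraries.

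**Figure D3:**
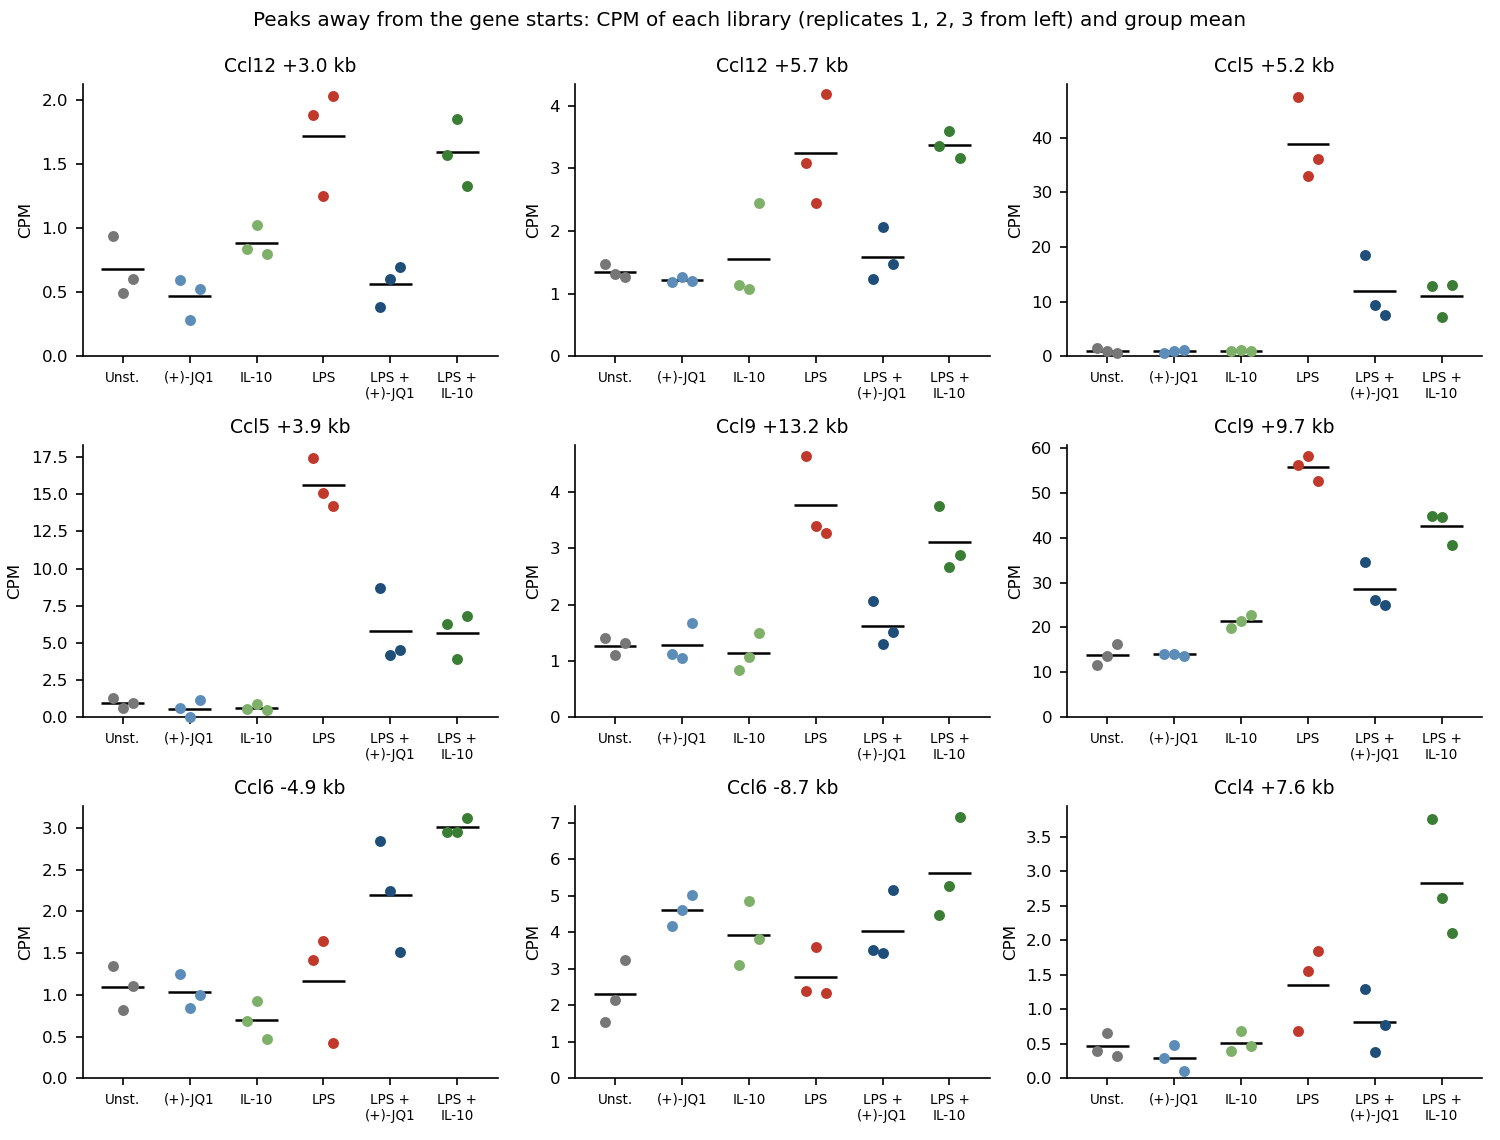
CPM of each library (points, replicates 1 to 3 from left) and group mean (line) for 9 peaks away from the gene starts, in the 6 groups on linear axes from 0. The peaks are the named ones of both comparisons with LPS, and Ccl5 +5.2 and +3.9 kb lie near 0 without LPS and fall below LPS with both agents, while Ccl6 -4.9 and -8.7 kb and Ccl4 +7.6 kb have their highest mean with LPS + IL-10.

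IL-10 given before LPS moved members in both directions (LPS + IL-10 against LPS). Of the 67, 8 (11.9%) were called higher and 5 (7.46%) lower, where 4.26% and 4.51% of all tested peaks were. DESeq2 called 5 (7.46%) higher and 4 (5.97%) lower, where 3.76% and 3.74% of all peaks were. Without replicate 1, edgeR called 4 (5.97%) higher and 6 (8.96%) lower, where 2.93% and 3.28% were. The median log2 fold change was 0.09 for the members and -0.01 for all peaks. The 5 lowered peaks all lay in the Ccl5 window, and of the 8 raised ones 5 lay around Ccl6. In each of the 13 the groups did not overlap. Without replicate 3, 3 (4.48%) were called higher and 5 (7.46%) lower, where 2.73% and 2.69% of all peaks were. Of the 13 calls, 3 were made in each of the 12 settings.

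Ccl5 +5.2 kb had 12.9, 7.24 and 13 CPM with LPS + IL-10, against 47.4, 33.0 and 36.1 CPM with LPS. Its log2 fold change of -1.81 ± 0.17 (SE, n = 3, edgeR adjusted p = 5.9e-15) stood beside -1.76 for (+)-JQ1, and the direct difference between the treatments was 0.05 ± 0.18 (SE, edgeR adjusted p = 0.92), which does not show that they act alike. Ccl5 +3.9 kb had 6.30, 3.94 and 6.84 CPM (-1.44 ± 0.20, SE, edgeR adjusted p = 2.9e-08). The start of Ccl5 had 18.6, 13.4 and 16.6 CPM (-1.26 ± 0.14, SE, edgeR adjusted p = 3.2e-11), so that 39.6% ± 6.99 (SD over the 3 treated libraries) of its LPS rise was left. Ccl5 -4.7 kb (chr11:83347917-83349529), which holds the NF-kappaB match printed above, had 34.8, 28.4 and 28.5 CPM with LPS and 24.4, 16.0 and 20.2 CPM with LPS + IL-10 (-0.60 ± 0.14, SE, edgeR adjusted p = 0.0015). Ccl5 -6.1 kb (chr11:83349695-83350556) had 7.37, 6.72 and 7.4 CPM (-0.58 ± 0.18, SE, edgeR adjusted p = 0.026). The call at Ccl5 -4.7 kb was lost without replicate 2, and that at Ccl5 -6.1 kb with DESeq2, with total counts and without replicate 1 or replicate 3.

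Around Ccl6 the called peaks were raised. The start of Ccl6 had 9.35, 8.34 and 10.3 CPM with LPS + IL-10, all above the LPS libraries at 6.06, 6.59 and 5.55 CPM. The log2 fold change was 0.62 ± 0.16 (SE, n = 3, edgeR adjusted p = 0.0054) and was 0.49 (adjusted p = 0.14) without replicate 3. Ccl6 -4.9 kb (chr11:83411105-83411796), in an intron of E230016K23Rik with an AP-1 match, had 1.42, 1.65 and 0.418 CPM with LPS and 2.95, 2.95 and 3.12 CPM with LPS + IL-10 (1.33 ± 0.30, SE, edgeR adjusted p = 0.00095). Ccl6 -8.7 kb (chr11:83414590-83416035) had 2.39, 3.60 and 2.33 CPM with LPS and 4.47, 5.27 and 7.17 CPM with LPS + IL-10 (1.02 ± 0.22, SE, edgeR adjusted p = 0.00034). Without replicate 3 their log2 fold changes were 0.94 and 0.70, and neither was called.

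In the other windows, IL-10 raised Ccl7 -3.6 kb (chr11:81855104-81856138), between Ccl2 and Ccl7, from 9.42, 10.3 and 10.4 CPM with LPS to 17.1, 17.6 and 18.5 CPM. The log2 fold change was 0.82 ± 0.15 (SE, n = 3, edgeR adjusted p = 1.9e-05). Ccl4 +7.6 kb (chr11:83483196-83484079) had 0.689, 1.55 and 1.85 CPM with LPS and 3.76, 2.61 and 2.11 CPM with LPS + IL-10 (1.07 ± 0.34, SE, edgeR adjusted p = 0.025), and was not called by DESeq2 (adjusted p = 0.069), without replicate 1 (0.56) or without replicate 2 (0.070). The starts of Ccl2 (-0.10 ± 0.13, SE, edgeR adjusted p = 0.69), Ccl12 (-0.08 ± 0.13, SE, 0.79) and Ccl4 (-0.30 ± 0.13, SE, 0.13) were not called. All libraries of LPS + IL-10 lay under those of LPS at Ccl2 (41.5, 41.5 and 38.2 CPM) and Ccl4 (22.9, 19.2 and 21.9 CPM), while at Ccl12 the groups overlapped. The start of Ccl3 had 23.6, 21.5 and 19.0 CPM, all under its LPS libraries, but its log2 fold change of -0.49 ± 0.14 (SE, edgeR adjusted p = 0.011) was just short of the size threshold, and it was called (-0.60) without replicate 1.

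**Figure D4:**
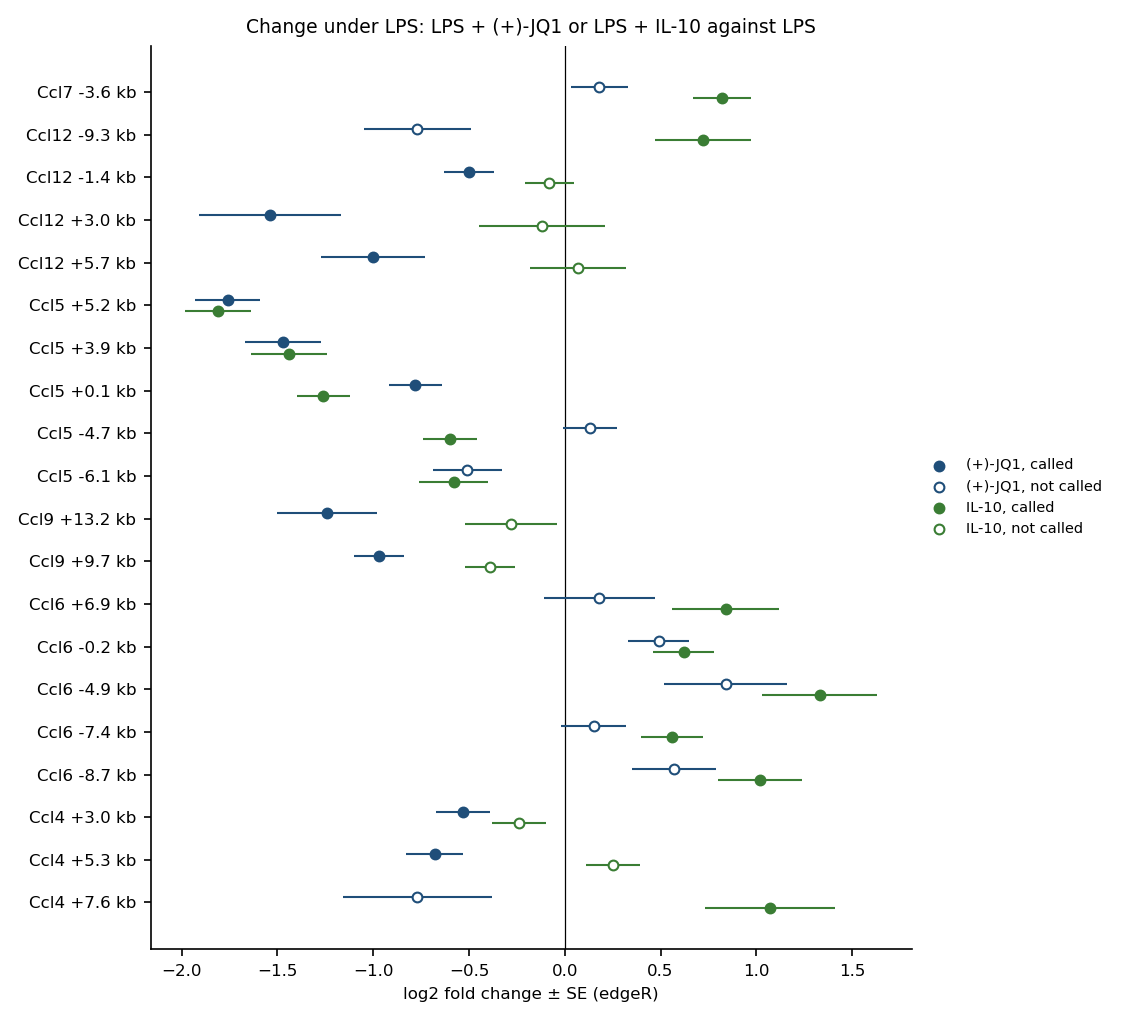
Log2 fold change ± SE from edgeR (horizontal axis) of LPS + (+)-JQ1 (blue) and LPS + IL-10 (green) against LPS for the 20 members called in either comparison, filled where called. Both share the LPS libraries. Ccl5 +5.2, +3.9 and +0.1 kb are negative in both, whereas peaks around Ccl12, Ccl9 and Ccl4 are negative with (+)-JQ1 and peaks around Ccl6 are positive with IL-10.

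Set directly against each other (LPS + (+)-JQ1 against LPS + IL-10), 11 members (16.4%) were lower with (+)-JQ1 and 2 (2.99%) were higher, where 4.68% and 3.43% of all tested peaks were. The median log2 difference was -0.15 for the members. All 13 differed without overlap between the groups. The largest difference was at Ccl4 +7.6 kb, with 1.30, 0.382 and 0.776 CPM against 3.76, 2.61 and 2.11 CPM (-1.84 ± 0.36, SE, edgeR adjusted p = 0.00012). Ccl12 -9.3 kb (chr11:81905631-81906384) had 0.998, 1.69 and 1.4 CPM against 4.47, 2.67 and 4.55 CPM (-1.49 ± 0.27, SE, edgeR adjusted p = 1.7e-05). Ccl4 +9.0 kb had 2.00, 1.75 and 1.16 CPM against 6.91, 3.36 and 2.76 CPM (-1.45 ± 0.27, SE, edgeR adjusted p = 5e-05). Ccl12 +3.0 and +5.7 kb (-1.42 ± 0.38 and -1.06 ± 0.27, SE, edgeR adjusted p of 0.006 and 0.0036) and Ccl9 +16.0 kb (-1.22 ± 0.38, SE, 0.024) were also lower with (+)-JQ1. The 2 that were higher with (+)-JQ1 were Ccl5 -4.7 kb (0.72 ± 0.14, SE, edgeR adjusted p = 9.3e-05) and the start of Ccl3 (0.56 ± 0.14, SE, 0.0033). The call at the start of Ccl3 was lost with total counts, with loess offsets and without replicate 1 or replicate 2 (0.43 to 0.59 over 12 settings). That at Ccl5 -4.7 kb was lost without replicate 2. Of the 13 calls, 4 were made in each of the 12 settings. At the start of Ccl5 the difference of 0.48 ± 0.15 (SE, edgeR adjusted p = 0.022) was under the size threshold. Without replicate 2, 5 members (7.46%) were called, all lower with (+)-JQ1, where 2.34% of all peaks were called lower.

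At rest, without LPS, both agents raised some members. (+)-JQ1 alone raised 12 (17.9%) and lowered 2 (2.99%) against unstimulated cells, where 7.85% and 3.15% of all tested peaks were called. With total counts in place of TMM, 5 (7.46%) were higher and 11 (16.4%) lower, where 1.97% and 14.1% of all peaks were, so that the lower share was near that of all peaks. With loess offsets 5 (7.46%) were higher and 2 (2.99%) lower, where 1.32% and 2.27% were. The balance of higher and lower calls thus depended on the scaling. The TMM factors of the unstimulated libraries were 1.243, 1.151 and 1.038, against 0.8964 to 1.049 in the others. Without replicate 2, 4 members (5.97%) were called higher, where 2.24% of all peaks were, and without replicate 1, 9 (13.4%, where 5.88% were). Of the 14 calls, 3 were made in each of the 12 settings. The strongest rise was at Ccl3 +9.1 kb (chr11:83453198-83454372), which has the highest mean in the Ccl3 window and went from 13.5, 14.1 and 17.4 CPM to 31.1, 31.6 and 31.2 CPM. Its log2 fold change was 1.06 ± 0.14 (SE, n = 3, edgeR adjusted p = 3.6e-08), and for LPS, which is compared with the same unstimulated libraries, it was 0.69 ± 0.14 (SE). The start of Ccl3 went from 9.37, 11.6 and 15.5 CPM to 23.6, 22.5 and 19.3 CPM (0.83 ± 0.15, SE, edgeR adjusted p = 9.6e-06), and with loess offsets by 0.41. Ccl6 -8.7 kb (0.98 ± 0.23, SE, edgeR adjusted p = 0.0011), Ccl4 -3.6 kb (0.85 ± 0.19, SE, 0.00041) and Ccl6 -7.4 kb (0.84 ± 0.19, SE, 0.00051) rose too, while Ccl7 +5.1 kb fell (-1.45 ± 0.47, SE, 0.027), a weak peak at 1.61, 0.714 and 0.877 CPM in unstimulated cells and 0.596, 0.280 and 0.261 CPM with (+)-JQ1. The call at Ccl7 +5.1 kb was lost with loess offsets, with the filter of at least 10 counts and when any of the 3 replicates was left out. The start of Ccl2, at 37.4, 37.8 and 36.5 CPM, was called (0.52 ± 0.13, SE, edgeR adjusted p = 0.0024), but with total counts its log2 fold change was -0.12.

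IL-10 alone raised 13 members (19.4%) and lowered 0, where 5.16% and 3.5% of all tested peaks were called. DESeq2 called 12 (17.9%) higher and 0 lower, where 5.65% and 2.33% of all peaks were. At an unadjusted p under 0.05 in edgeR 18 were higher and 4 lower, with no share of all peaks taken at that cut. Of the 13, 11 had no overlap between the groups, and 4 were called in each of the 12 settings. With total counts 6 (8.96%) were higher and 5 (7.46%) lower, where 1.27% and 8.58% of all peaks were, so that the lower share was below that of all peaks. Without replicate 2, 5 (7.46%) were called higher, where 0.799% of all peaks were. The start of Ccl12 went from 10.4, 8.63 and 11.3 CPM to 21.0, 22.2 and 24.3 CPM, without overlap (log2 fold change 1.16 ± 0.14, SE, n = 3, edgeR adjusted p = 3e-09). Ccl6 -7.4 kb (chr11:83413482-83414568) went from 2.74, 3.68 and 3.23 CPM to 6.49, 8.31 and 9.16 CPM (1.30 ± 0.18, SE, edgeR adjusted p = 1.3e-07), and Ccl6 +5.5 kb from 0.736, 0.440 and 0.712 CPM to 1.57, 1.94 and 1.13 CPM (1.30 ± 0.38, SE, 0.015). The peak 10 kb upstream of Ccl5 (log2 fold change 1.05 ± 0.16, SE, edgeR adjusted p = 1.4e-06), Ccl6 +6.9 kb (0.96 ± 0.27, SE, 0.012) and Ccl7 -3.6 kb (0.94 ± 0.17, SE, 6.2e-05) also rose. The call at Ccl6 +5.5 kb, a weak peak, was lost with the filter of at least 10 counts and without replicate 1 or replicate 2. That at Ccl6 +6.9 kb was lost with total counts and without replicate 2 or replicate 3. The start of Ccl5 was at 1.62, 1.07 and 0.940 CPM with IL-10 and 1.25, 0.840 and 1.25 CPM with (+)-JQ1, and was not called in either comparison (adjusted p of 0.88 and 0.77).

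**Figure D5:**
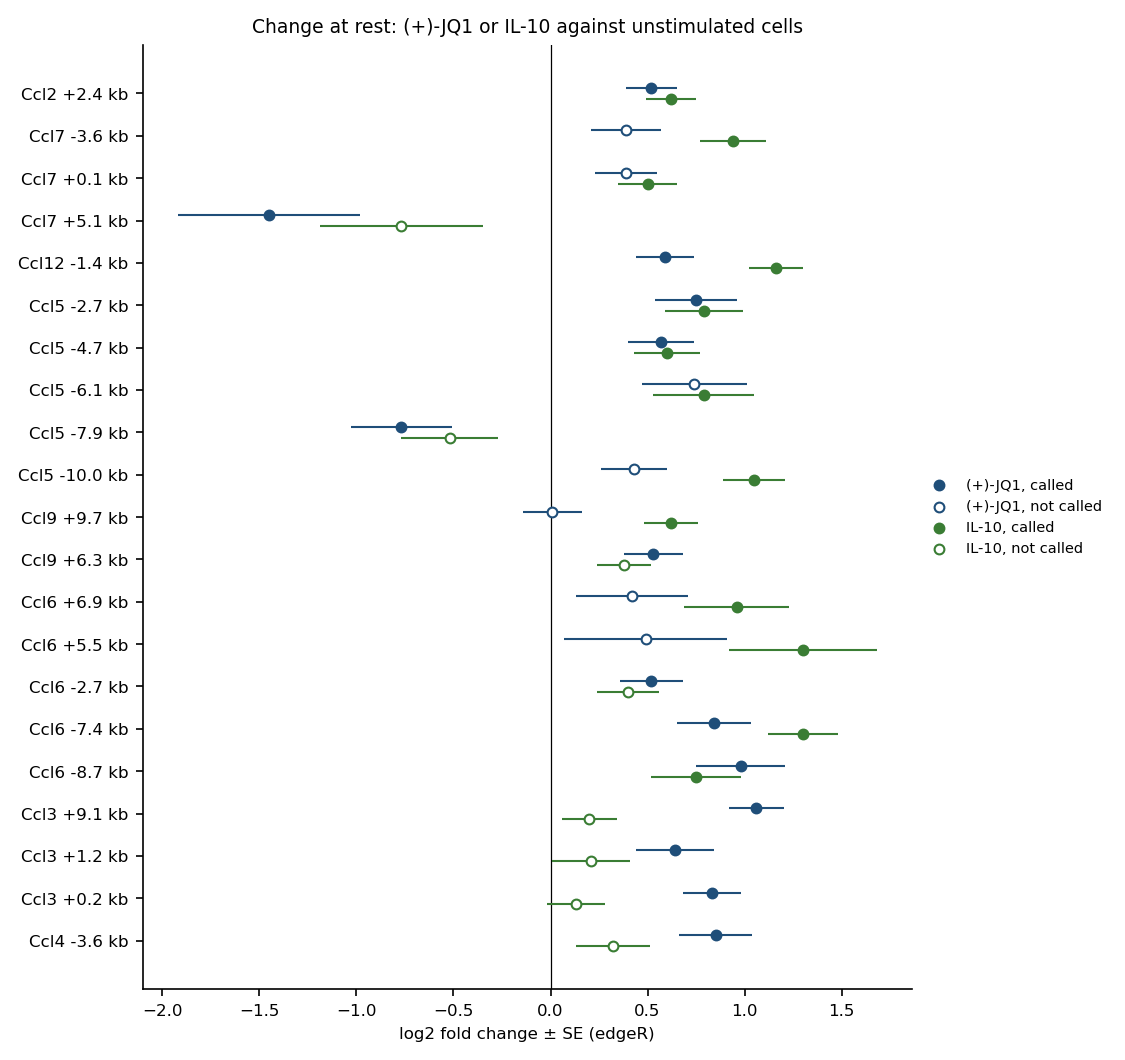
Log2 fold change ± SE from edgeR (horizontal axis) of (+)-JQ1 (blue) and IL-10 (green) against unstimulated cells, without LPS, for the 21 members called in either comparison, filled where called. Both share the unstimulated libraries. Most values are positive, and Ccl3 +9.1 and +0.2 kb are filled for (+)-JQ1.

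Whether an agent acted differently with and without LPS was tested by the interaction terms. For (+)-JQ1, 8 members (11.9%) had a lower effect with LPS than at rest and 1 (1.49%) a higher one, where 3.19% and 0.649% of all tested peaks did. With total counts these were 4 (5.97%) and 1 (1.49%), where 0.946% and 2.41% of all peaks were called, and with loess offsets 5 (7.46%) and 0, where 0.528% and 0.791% were. For IL-10, 12 members (17.9%) had a lower effect with LPS and 3 (4.48%) a higher one, where 5.9% and 2.01% did. With total counts these were 7 (10.4%) and 6 (8.96%), where over all peaks the balance turned to 2.65% lower and 6.28% higher. Without replicate 2, 0 members were called for (+)-JQ1, where 0.0448% of all peaks were lower and 0.0149% higher. For IL-10, 4 members were then called, 2 (2.99%) lower and 2 (2.99%) higher, where 0.584% and 0.31% of all peaks were. At an unadjusted p under 0.05 in edgeR, 16 members passed for (+)-JQ1 without replicate 2, with no share of all peaks taken. Of the 9 calls for (+)-JQ1 none was made in each of the 12 settings, and of the 15 for IL-10, 1 was. At the start of Ccl12, (+)-JQ1 changed the log2 level by 0.59 ± 0.15 (SE) at rest and by -0.50 ± 0.13 with LPS. The resting value went as low as 0.13 over the settings, and its call was lost with total counts, with loess offsets, with the filter of at least 10 counts and without replicate 2, while the interaction at this peak was called in 11 of the 12 settings and not without replicate 2.

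Over the 18 libraries, the promoter-class peaks outside both clusters whose log2 CPM followed the start of Ccl2 most closely were peaks nearest to Rapgef2 (Pearson r = 0.954), Slfn2 (0.953), 5930403N24Rik (0.951), Birc3 (0.947) and Nrp2 (0.947), out of 32262 compared. Those most like the start of Ccl5 were nearest to Mrpl39 (0.993), Zfp811 (0.986), Npc2 (0.985), Mx2 (0.985) and Apbb1ip (0.985), and lay 6.2 to 30.7 kb from the nearest protein-coding start. Among all 10, the peaks at Slfn2 and Birc3 covered a start. These r values are a description, since the libraries share 6 conditions.

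Elsewhere in the pathway, 63 further peaks lay around other CC chemokine genes (Ccl1 and Ccl11 of the first cluster, Ccl17, Ccl22, Ccl24, Ccl25 and Ccl27a). With LPS, 11 (17.5%) were called higher and 5 (7.94%) lower, beside the 11.7% and 10.2% of all peaks given above. With LPS + (+)-JQ1, 2 (3.17%) were higher and 2 (3.17%) lower, near the 1.74% and 3.49% of all peaks. With LPS + IL-10, 0 were higher and 8 (12.7%) lower, beside 4.26% and 4.51% of all peaks. The last included all 7 peaks of Ccl22 (median log2 fold change -1.42).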

How the data were processed

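ATAC-seq was measured in 18 libraries, 3 in each of 6 groups, and each group was read from the labels. The deposited values were raw counts per peak. Per the methods and the submitters' processing notes, the authors aligned reads to mm9 with Bowtie2 in PEPATAC 0.9.0, called peaks with MACS2 per library, joined them into a union set and classed them with ChIPseeker as promoter (1000 bp before to 100 bp after a start) or distal. The counting tool was not given in the sources used here, and 6 columns of the count table that match no sample here were not used. Insertion-site shifting and copies from PCR act before counting and could not be examined, so that errors cover the spread between libraries only.

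Differences were fitted in R 4.3.3 by edgeR 4.0.16 (quasi-likelihood fit over all 6 groups, TMM, filterByExpr, Benjamini-Hochberg over 194230 peaks, with 54 not tested), and all 67 members were tested. A peak was called at an adjusted p under 0.05 with an absolute log2 fold change over 0.5. In simulated counts for LPS against unstimulated cells with 200 of 193797 peaks changed by an absolute log2 fold change of 1.5, 168 were recovered with 9 false calls. The simulation gave every peak the same spread, had no lane or replicate effect and changed only peaks with a mean CPM of at least 0.5. Its rates therefore do not carry over to smaller changes or to weaker peaks. DESeq2 1.42.0, loess offsets (limma 3.58.1), other scalings, filters, fits and replicates left out were alternatives.

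Replicate 1 of each group was sequenced on lane 5 and replicate 3 on lane 6, while for replicate 2 the lane changed with LPS (5 for PBS, 6 for LPS), so that replicates 1 and 3 give within-lane values. The labels tie no number to a mouse, and the fit did not pair libraries.

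The members and the gene lists were chosen with earlier results of these data known. Peaks named in the text are those over the 9 gene starts, the highest peak of each gene's window, up to 6 called peaks with the largest absolute log2 fold change per comparison, peaks called with both agents under LPS, and up to 6 interaction calls per agent. Ccl4 +5.3 kb and Ccl3 -1.4 kb fall outside this rule and were chosen after their values were seen. Sequences came from the mm9 reference genome, and gene models from GENCODE M1. Peaks around the chemokine receptor genes are not reported here.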

Additional observations from a re-analysis of the deposited data

Results flagged for a closer look

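The effect of an agent was called as different with and without LPS at these peaks in the main fit. The test was edgeR's quasi-likelihood test of the interaction term (the log2 fold change with LPS minus that at rest), adjusted after Benjamini-Hochberg. For (+)-JQ1 the difference was -1.61 at Ccl5 +5.2 kb (adjusted p = 0.016), -1.25 at Ccl5 -6.1 kb (0.017), -1.1 at Ccl12 -1.4 kb (0.00038), -0.98 at Ccl4 +3.0 kb (0.013), -0.97 at Ccl9 +9.7 kb (0.0024) and 1.14 at Ccl5 -7.9 kb (0.034). For IL-10 it was -1.84 at Ccl5 +5.2 kb (adjusted p = 0.00065), -1.36 at Ccl5 -6.1 kb (0.0023), -1.24 at Ccl12 -1.4 kb (5.4e-06), -1.2 at Ccl5 -4.7 kb (9e-05), 1.51 at Ccl3 -3.2 kb (0.034) and 1.96 at Ccl6 -4.9 kb (0.0036). Ccl5 +5.2 kb is near 0 without LPS (0.548 to 1.54 CPM in unstimulated cells), so its effect at rest rests on few counts. The (+)-JQ1 call at Ccl5 +5.2 kb was lost with DESeq2 and without replicate 2 or replicate 3, with values of -2.48 to -0.9 over 12 settings. That at Ccl5 -7.9 kb was lost with loess offsets, a fit of the compared groups alone and without replicate 1 or replicate 2. Those at Ccl5 -6.1 kb and Ccl4 +3.0 kb were lost without replicate 2 or replicate 3, the former also with total counts. Those at Ccl12 -1.4 kb and Ccl9 +9.7 kb were lost only without replicate 2. Without replicate 2, edgeR called 0 of the (+)-JQ1 interactions, where 0.0448% of all peaks were called lower and 0.0149% higher. At an unadjusted p under 0.05, 16 members passed in that edgeR fit. With all libraries DESeq2 called 8, of which 7 (10.4%) were lower and 1 (1.49%) higher, where 5.12% and 0.408% of all peaks were. Of the IL-10 calls named here, that at Ccl12 -1.4 kb was made in each of the 12 settings, while those at Ccl5 +5.2 and -4.7 kb were lost without replicate 2, those at Ccl5 -6.1 kb and Ccl6 -4.9 kb without replicate 3 (the latter also with a filter of at least 10 counts in every library), and that at Ccl3 -3.2 kb with loess offsets and without replicate 1 or replicate 3.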

How the results depend on the processing

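Of 934 settings over 73 named values, 859 kept their direction and side of the threshold, 67 lost the call, 3 gained it and 5 changed sign. Members called for LPS numbered 34 to 43 in every setting, against 42. With total counts 32 (47.8%) were higher and 2 (2.99%) lower, where 6.58% and 19.3% of all peaks were. The counts below pool higher and lower calls. The labels give each group replicates 1 to 3 without saying that a number marks a mouse. Deviations from the group means correlated with a mean r of 0.00874 over 45 same-number pairs (-0.108 to 0.0777) and -0.00437 over 90 other pairs, and 9 of 18 libraries correlated best with their own number. The replicate block gave 41 for LPS, 10 for LPS + (+)-JQ1, 14 for LPS + IL-10, 13 between these, 14 and 12 for (+)-JQ1 and IL-10 at rest, and 9 and 15 for their interactions, so the block moved no count by over 1.5 times. For LPS, 11.8% of all peaks were called higher and 10.1% lower with the block. With it, Ccl8 +0.0 kb (adjusted p = 0.052), Ccl7 +0.1 kb with IL-10 at rest (log2 fold change 0.5) and Ccl3 +0.2 kb in the IL-10 interaction (0.052) lost the call, while Ccl5 -1.9 kb with LPS + IL-10 (-0.58) and Ccl3 -1.4 kb in the IL-10 interaction (1.42) gained it. Loess offsets gave 7 for (+)-JQ1 and 7 for IL-10 at rest, 5 for the (+)-JQ1 interaction and 9 for that of IL-10, and total counts gave 5 for the (+)-JQ1 interaction. The shares for (+)-JQ1 are given above. For IL-10 at rest with loess offsets, 10.4% of members were higher, where 1.42% of all peaks were. In its interaction 10.4% were lower and 2.99% higher, where 1.88% and 2.22% of all peaks were. Leaving out each replicate gave 5 to 11 for LPS + (+)-JQ1, 8 to 10 for LPS + IL-10, 5 to 12 between these, 4 to 14 and 5 to 14 for (+)-JQ1 and IL-10 at rest, and 0 to 6 and 4 to 11 for their interactions, where the lowest was without replicate 3 for the first pair and without replicate 2 for the others. Fewer libraries were then tested, and the shares of all peaks moved as well. For (+)-JQ1 at rest, 20.9% of members were higher without replicate 3 and 5.97% without replicate 2, where 9.74% and 2.24% of all peaks were. For IL-10 at rest these were 19.4% and 7.46%, where 8.56% and 0.799% were. Without replicate 1, 16.4% were lower with LPS + (+)-JQ1, where 2.89% of all peaks were. Between the agents without replicate 3, 11.9% were lower and 5.97% higher, where 2.91% and 2.35% were. Values that were not called changed sign at Ccl2 +2.4 kb with LPS + IL-10 (loess 0.07), Ccl3 +0.2 kb with LPS + (+)-JQ1 (loess -0.01, replicates left out -0.1 to 0.24), Ccl7 +0.1 kb with LPS + IL-10 (-0.01 to 0.25) and Ccl8 +0.0 kb with LPS + (+)-JQ1 (-0.28 to 0.25), and the cause was not tested. Total counts moved the median of all peaks to -0.261 for LPS, -0.366 and -0.257 for (+)-JQ1 and IL-10 at rest, and 0.295 and 0.311 for their interactions. The median raw count of a member was 8 to 767, and 19 members were under 20. Whether small differences could be detected at such counts was not tested.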
